A study of Homo sapiens with 17 samples.

Results

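L1PA4, L1PA5 and L1PA6 are neighbouring, middle-aged primate subfamilies of the LINE-1 (L1) retrotransposon. Their copies were taken from a table of reads per repeat locus by subfamily name, which gave 27448 of the 3594049 loci: 11328 of L1PA4, 10678 of L1PA5 and 5442 of L1PA6. A copy whose end minus start was over 5900 bases was counted as full-length, and the rest as shorter. That left 2897 full-length copies (1268, 897 and 732) and 24551 shorter ones (10060, 9781 and 4710). RNA came from N2102Ep, an established human embryonal carcinoma line, and was sequenced after RNA immunoprecipitation (RIP), in which a protein is pulled down with the RNA bound to it. There were 4 ORF1p RIP libraries, 4 ORF2p RIP libraries, 3 mock IP libraries, whose descriptions carry the term mIgG, and 6 libraries of total RNA. The labels name clone 2/A6 of N2102Ep for the ORF2p RIP, the mock IP and total RNA, and only N2102Ep for the ORF1p RIP. No treatment other than the pulldown is named for any group.

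A complete L1 element is transcribed from a promoter in its own 5′ end and encodes ORF1p, an RNA-binding protein that coats the transcript, and ORF2p, whose endonuclease and reverse transcriptase activities write it back into DNA. Both proteins prefer the RNA that encoded them. Most copies in the genome are cut short at the 5′ end, which happens during insertion, and so lack the promoter. L1PA subfamilies are numbered by age: L1HS is the human-specific one that can still move, L1PA2 and L1PA3 are somewhat older, and L1PA4, L1PA5 and L1PA6 spread earlier in primates and most of their copies have since gathered mutations that break the reading frames. The comparison of each RIP with the mock IP asks which of these old copies are represented in RNA that comes down with an L1 protein, and both comparisons share the same 3 mock libraries.

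The libraries held between 7693841 and 19670774 reads in repeats. HERVH-int, the internal part of a retrovirus that is highly expressed in human pluripotent and embryonal carcinoma cells, stood at 83868 ± 12862 CPM in total RNA (SD, n = 6), and its LTR7 end at 4268 ± 1594 CPM (SD, n = 6). CPM is the read count scaled to 1e6 repeat reads after TMM scaling, a correction for library composition. ORF1p RIP replicate 3 stood apart from the other 3 libraries of its group in every class of copies described here, so values of that group are also given without it. Total RNA replicates 1 and 2, whose descriptions carry the letter b, held less L1PA4 to L1PA6 RNA than replicates 3 to 6, whose descriptions carry bl. No source used here says that replicates came from separate cultures, so the p-values reflect the scatter among the libraries at hand, part or all of which may be technical.

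Divergence differed between the classes of the set. Median divergence from the subfamily's consensus was 5.2% for full-length L1PA4, 6.7% for full-length L1PA5 and 7.4% for full-length L1PA6, against 3.8%, 5.0% and 6.6% for their shorter copies. Median lengths were 6139, 6126 and 6137.5 bases for the full-length copies, and 615, 573 and 785.5 bases for the shorter ones. Between 49.6% and 53.5% of the copies of each class lay outside every RefSeq gene span, and of those inside a span whose strand was known more were antisense than sense, with 293 against 116 for full-length L1PA4.

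Because the copies are so alike, many reads match several of them. No full-length copy had whole-number values in all 17 libraries, and the shorter copies that did held only 0.426% to 0.755% of their class's reads. A value for a single copy therefore depends on how the deposited counts shared such reads out, which the sources used here do not state. A fractional value in 1 library was enough to fail the whole-number rule, so the rule does not measure how many reads were shared. Every full-length copy had reads in at least 1 of the 17 libraries, while 820 shorter L1PA4 copies, 859 shorter L1PA5 copies and 384 shorter L1PA6 copies had none in any. Of copies next to the length limit, the 78 of 5901 to 6000 bases summed to 824 ± 34.6 CPM in the ORF2p RIP (SD, n = 4) and 509 ± 46.0 CPM in the mock IP (SD, n = 3). The 52 of 5801 to 5900 bases summed to 295 ± 25.7 and 104 ± 8.70 CPM in the same groups.

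L1PA4 to L1PA6 copies took a larger part of repeat RNA in the ORF2p RIP than in any other group. They made up 4.68% ± 0.157 of repeat reads there (SD, n = 4; 4.49% to 4.88%) and 1.75% ± 0.0881 in the mock IP (SD, n = 3; 1.65% to 1.83%). In the ORF1p RIP the share was 2.10% ± 0.521 (SD, n = 4; 1.80% to 2.88%), and in total RNA it ran from 1.12% through a median of 1.84% to 2.53% (n = 6). All 4 ORF2p libraries lay above every library of the other groups, whereas the ORF1p libraries overlapped the mock IP and total RNA. For ORF2p against the mock IP an exact two-sided permutation test gave p = 0.0571, the smallest it can give for 4 against 3 libraries, and 0.0995 after adjustment over 54 such tests. Against total RNA the exact permutation p was 0.00952 (adjusted 0.0571), and against the ORF1p RIP 0.0286 (adjusted 0.0857), each also the smallest the design allows. The ORF1p share differed from the mock IP with an exact permutation p of 0.171.

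**Figure D1:**
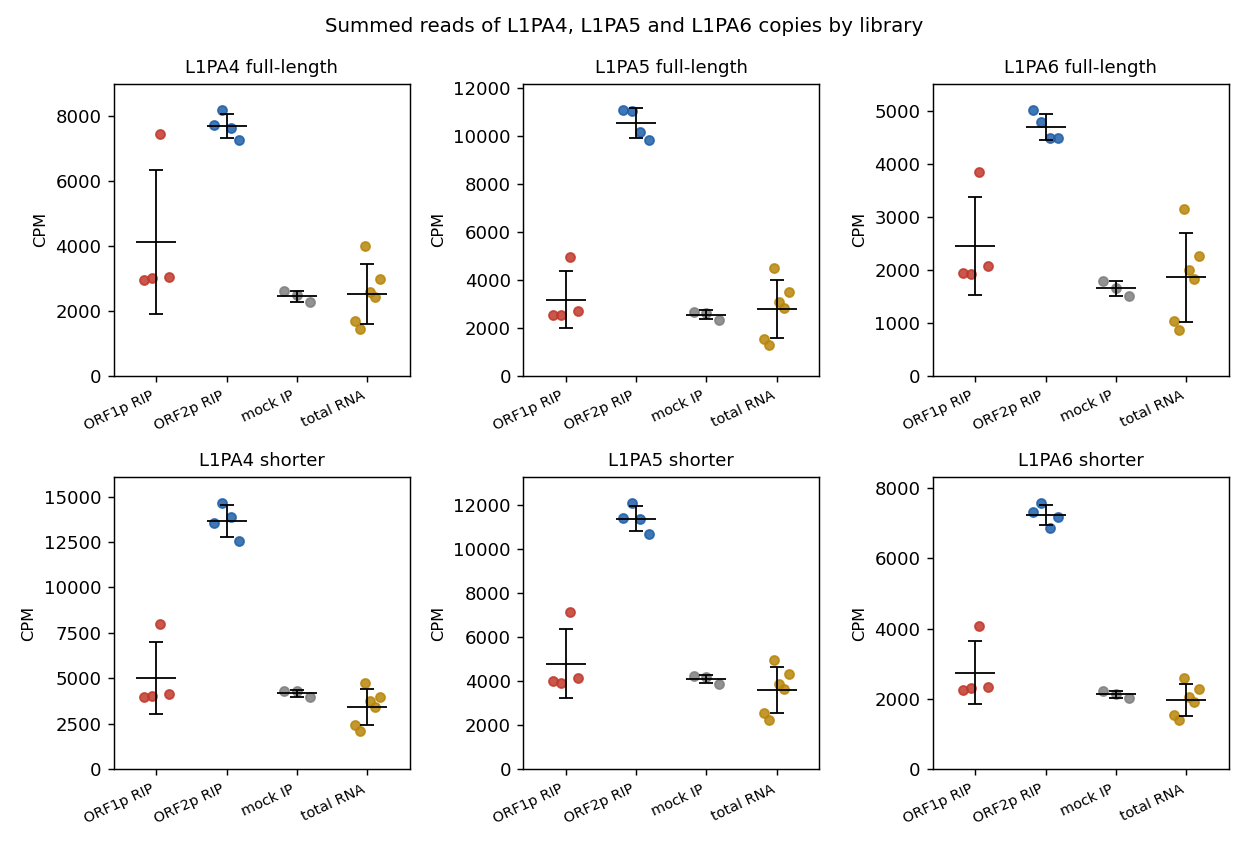
Summed CPM (TMM scale, linear axes from 0) of full-length copies (upper row) and shorter copies (lower row) of L1PA4, L1PA5 and L1PA6. Each point is 1 library and the bar is the group's mean with its SD (n = 4, 4, 3 and 6). In every panel the ORF2p RIP libraries lie above all mock IP and total RNA libraries, and 1 ORF1p RIP library lies well above the other 3 of its group.

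The rise in the ORF2p RIP reached all 6 classes of copies. Full-length L1PA4 stood at 7738, 8181, 7619 and 7269 CPM in the ORF2p RIP and at 2611, 2484 and 2276 CPM in the mock IP. Full-length L1PA5 stood at 11070, 11054, 10151 and 9828 CPM against 2677, 2622 and 2334. Full-length L1PA6 stood at 5007, 4784, 4487 and 4490 CPM against 1793, 1660 and 1510. No ORF2p library overlapped a mock library in these classes. The fitted log2 changes by edgeR's quasi-likelihood test were 1.65 ± 0.35 (SE; adjusted p = 0.00207) for L1PA4, 2.05 ± 0.37 (adjusted p = 0.000531) for L1PA5 and 1.5 ± 0.36 (adjusted p = 0.00471) for L1PA6.

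The shorter copies also rose, and a large part of their rise lay in few copies. Over all 3 subfamilies, the 15 shorter copies that are the 5 most-read of their class had a log2 ratio of summed CPM to the mock IP of 3.77 and the other 24536 one of 1.18. For full-length copies these ratios were 2.24 and 1.57. The ranking counted the reads of all libraries, those of the ORF2p RIP among them. Part of the contrast between leading and other copies is therefore built into the choice, here and wherever the most-read copies are left out below. Shorter L1PA4 stood at 13565, 14621, 13871 and 12555 CPM in the ORF2p RIP against 4279, 4274 and 3941 in the mock IP, which is 1.71 ± 0.28 on the log2 scale (SE; edgeR adjusted p = 0.000249). The means were 11362 ± 562 (SD, n = 4) against 4087 ± 202 CPM (SD, n = 3) for shorter L1PA5, and 7227 ± 286 against 2124 ± 110 CPM for shorter L1PA6. Their log2 changes were 1.48 and 1.77 (edgeR adjusted p = 0.000483 and 2.99e-05). In all, 1717 shorter L1PA4 copies, 1868 of L1PA5 and 1033 of L1PA6 had whole-number values in every library, with 0.426% to 0.755% of their class's reads. Over these the same comparison gave 0.01, 0.06 and -0.52, none called. Since they hold so few reads, these values say little about the rest of their class. On all copies, the 6 classes passed both an adjusted p under 0.05 and a 2-fold change, the rule for a call throughout, where 7.8% of the 1115 rows of the subfamily table were called higher in this comparison and 1.7% lower. Scaling by library totals in place of TMM moves the median of all rows in this comparison from -0.06 to -0.33 on the log2 scale, and all 6 classes remained called higher under it.

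ORF1p RIP levels were nearer to the mock IP. Full-length L1PA4 stood at 2958, 3009, 7434 and 3058 CPM in the ORF1p RIP, so that replicate 3 was far above the others, which themselves lay above the 3 mock libraries. Full-length L1PA5 stood at 2553, 2527, 4948 and 2685 CPM, and without replicate 3 its values overlapped those of the mock IP, with replicate 4 just above all 3 mock libraries. Full-length L1PA6 stood at 1944, 1925, 3840 and 2078 CPM, above the mock libraries by a smaller margin. The log2 changes against the mock IP were 0.74 ± 0.34 (SE; edgeR adjusted p = 0.0804), 0.32 ± 0.35 (adjusted p = 0.460) and 0.56 ± 0.35 (adjusted p = 0.193). Without replicate 3 they were 0.29, 0.02 and 0.26.

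The shorter copies differed still less between the ORF1p RIP and the mock IP. Their log2 changes were 0.27 for L1PA4, 0.23 for L1PA5 and 0.37 for L1PA6, with edgeR adjusted p-values of 0.411, 0.467 and 0.174. Without replicate 3 those of L1PA4 and L1PA5 turned to -0.04 and -0.03, and that of L1PA6 was 0.11. None of the 6 classes was called in this comparison by edgeR, and 1, full-length L1PA4, had an unadjusted p under 0.05 (0.0446), where 7.8% of all rows were called higher and 9.69% lower.

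Set directly against each other, the ORF2p RIP held more of every class than the ORF1p RIP, although replicate 3 of the ORF1p RIP, at 7434 CPM, lay within the ORF2p range for full-length L1PA4. The difference was called for full-length L1PA5 (log2 change 1.73 ± 0.33, edgeR adjusted p = 0.000302) and for the shorter copies of all 3 subfamilies (1.44, 1.25 and 1.40, adjusted p between 2.31e-05 and 0.000281). Full-length L1PA4 and L1PA6 had adjusted p-values of 0.0213 and 0.0210 but fell short of 2-fold, with log2 changes of 0.90 and 0.94. Both passed 2-fold without ORF1p RIP replicate 3, at 1.36 and 1.24. With the 5 most-read copies of each class left out, no class was called between the RIPs: full-length L1PA5 came to 0.30 (edgeR adjusted p = 0.314), and the shorter copies to 0.89, 0.76 and 0.77. Because the ranking counted the ORF2p RIP's own reads, part of this drop is built into the choice. Of all rows, 13.4% were called higher and 7% lower here.

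Against total RNA, all 6 classes were again called higher in the ORF2p RIP, with log2 changes from 1.34 for full-length L1PA6 to 2.00 for shorter L1PA4 (6.19% of all rows were called higher and 1.35% lower). Full-length L1PA5 ran from 1276 through a median of 2960 to 4513 CPM in total RNA, below every ORF2p library. For the ORF1p RIP the log2 changes ran from 0.19 for full-length L1PA5 to 0.71 for full-length L1PA4 and none was called, beside 9.33% of all rows called higher and 9.24% lower. With the 2 total RNA libraries of the b series alone as the control, 4 classes were called higher, full-length L1PA4 at 1.30, full-length L1PA5 at 1.08, full-length L1PA6 at 1.27 and shorter L1PA4 at 1.05. With the 4 of the bl series alone, full-length L1PA5 turned to -0.17 and no class was called. Fewer cells with such RNA and less of it per cell cannot be told apart in these bulk samples. The mock IP and total RNA differed by log2 changes of -0.17 to 0.29 with no call by edgeR (unadjusted p between 0.251 and 0.914), where 0.807% of all rows were called higher and 0 lower.

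The neighbours in age give the scale for these changes. Relative to full-length L1PA3, the next younger subfamily, full-length L1PA4 had a log2 ratio of -0.75 ± 0.03 in the mock IP (SD, n = 3), -0.79 ± 0.04 in total RNA (n = 6), -1.49 ± 0.12 in the ORF1p RIP (n = 4) and -1.85 ± 0.04 in the ORF2p RIP (n = 4). Every RIP library lay below every mock IP and total RNA library, so full-length L1PA4 gained less than L1PA3 in both RIPs. Against total RNA the exact two-sided permutation p was 0.00952 for either RIP (adjusted 0.0343 over 72 tests), and against the mock IP 0.0571 (adjusted 0.0709). Full-length L1PA5 fell by 1.1 in this ratio in the ORF1p RIP against the mock IP and by 0.70 in the ORF2p RIP. Full-length L1PA6 fell by 0.86 and 1.24, with no overlap between RIP and mock libraries in either.

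Summed over all their copies, the shorter classes behaved differently between the RIPs. In the ORF1p RIP their ratio to shorter L1PA3 fell by 0.84, 0.86 and 0.72 for L1PA4, L1PA5 and L1PA6 against the mock IP, again without overlap. In the ORF2p RIP it differed from the mock IP by -0.08, -0.32 and -0.02, and only L1PA5 was without overlap. The difference between the RIPs, 0.76, 0.54 and 0.70 on the log2 scale, had an exact permutation p of 0.0286 in each case (adjusted 0.0571), the smallest possible for 4 against 4. In the ORF2p RIP the 5 leading copies held 32.7%, 29.0% and 47.6% of shorter L1PA4, L1PA5 and L1PA6 reads. The 5 leading in the ORF1p RIP held 6.03%, 7.66% and 21.1% there. A single copy held 50.5% of full-length L1PA5 reads in the ORF2p RIP. Ratios to L1PA3 and L1PA7 were not computed without such copies, so how far they rest on them was not tested.

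Towards the older neighbour L1PA7 the picture depended on length. Shorter L1PA4, L1PA5 and L1PA6 gained on shorter L1PA7 by 0.25, 0.23 and 0.36 in the ORF1p RIP and by 0.37, 0.13 and 0.42 in the ORF2p RIP, each without overlap with the mock IP. Full-length L1PA4 and L1PA6 lost against full-length L1PA7 in the ORF2p RIP, by 0.61 and 0.75, while in the ORF1p RIP they differed by 0.12 and 0.00 and overlapped the mock IP. Full-length L1PA5 lay below the mock IP without overlap in both RIPs, by -0.24 in the ORF1p RIP and -0.21 in the ORF2p RIP. These L1PA5 values turned to 0.052 in the ORF1p RIP with the length limit at 6000 bases and to 0.068 in the ORF2p RIP with the limit at 5500 bases. None of these tests against the mock IP could pass the adjusted threshold, since 4 against 3 libraries allow no p under 0.0571.

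The increase over the mock IP depended on the length of the copy. Summed over the 10790 copies of up to 500 bases, the set held 1713 ± 91.1 CPM in the ORF2p RIP (SD, n = 4) and 1217 ± 32.3 CPM in the mock IP (SD, n = 3), a log2 ratio of 0.49. The ratio was 0.54 for 501 to 1000 bases, 1.34 for 1001 to 2000, 2.10 for 2001 to 4000, 2.09 for 4001 to 5900 and 1.82 for full-length copies. ORF2p and mock libraries did not overlap in any of these length ranges. The ORF1p RIP ratios were -0.07, -0.16, -0.00, 0.49, 0.64 and 0.57, and only copies over 2000 bases lay above all mock libraries. With the 5 most-read copies of each class left out, a choice made on the reads themselves, the ORF2p ratio went from 0.15 for up to 500 bases through 0.54, 1.30, 1.36 and 1.52 to 1.57 for full-length copies.

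**Figure D2:**
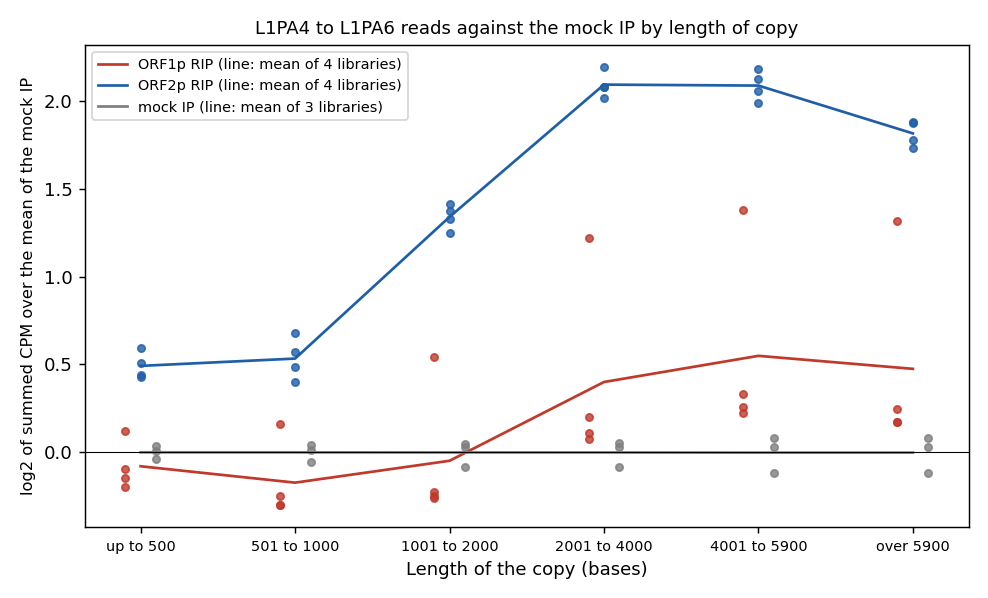
Log2 of the summed CPM of L1PA4 to L1PA6 copies over the mean of the mock IP, by length of the copy in bases. Points are libraries and lines are means of each group's log2 values. The ORF2p RIP stays near 0.5 up to 1000 bases and reaches 2.10 at 2001 to 4000 bases, while 3 of the 4 ORF1p RIP libraries lie between -0.30 and 0.33 at every length and replicate 3 reaches 1.38.

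Per kilobase of annotated sequence, the mock IP held between 0.346 and 0.456 CPM in all 6 length ranges. The ORF2p RIP held 0.643 CPM per kilobase in copies of up to 500 bases, 1.54 in those of 2001 to 4000 bases and 1.30 in full-length ones. In the ORF1p RIP the lowest and highest values were 0.310 and 0.548. The span in the ORF2p RIP narrowed without a few copies. With the 5 most-read copies of each class left out, the lowest and highest values per kilobase were 0.497 and 0.920 CPM for ORF2p, 0.310 and 0.525 for ORF1p, and 0.255 and 0.448 for the mock IP.

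Full-length copies held 36.1% of L1PA4 reads in the ORF2p RIP, 44.0% in the ORF1p RIP, 37.1% in the mock IP and 42.0% in total RNA. For L1PA5 the shares were 48.1%, 39.7%, 38.3% and 42.5%, and for L1PA6 39.4%, 46.9%, 43.7% and 46.9%. Over all copies the ORF1p RIP stood above the mock IP in the 3 subfamilies, by 6.95, 1.32 and 3.17 percentage points and without overlap. Over copies outside gene spans it stood above only in L1PA4, by 7.26 points, and the difference turned to -12.1 points in L1PA5 and -4.27 points in L1PA6. In L1PA4, however, replicate 3 at 48.2% stood apart from the others at 42.5% to 42.7%. Against the ORF1p RIP, the ORF2p RIP was lower by 7.96 points in L1PA4, higher by 8.41 points in L1PA5 and lower by 7.55 points in L1PA6, again without overlap. Every one of these tests stopped at the smallest exact permutation p, 0.0571 or 0.0286, with an adjusted value of 0.0857 or above over 18 tests. The direction between the RIPs depended on the copies and the length limit in all 3 subfamilies. In L1PA4 the difference turned to 0.483 points without the 5 most-read copies of each class, and in L1PA6 to 2.18 points with the limit at 5500 bases and to 4.49 points outside gene spans. In L1PA5 it turned with the leading copies: without the most-read copy of each class its ORF2p share lay 3.97 points below the mock IP and 5.49 points below the ORF1p RIP. The same step put the ORF2p RIP above the mock IP by 5.03 points in L1PA4 and 2.55 points in L1PA6.

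Single copies were tested where reads sufficed. Of the 27448 copies, 4816 passed a filter on low counts (1880 full-length and 2936 shorter), and these held 87.2% of the set's reads. A copy can pass through the group where it is high, so the counts that follow describe these copies and not the whole set. In the ORF2p RIP against the mock IP, 1118 full-length copies were called higher and 12 lower, and 1206 shorter copies higher and 120 lower, where 14.2% of all 196463 repeat loci tested were called higher and 11.5% lower. The median log2 change over all loci tested was -0.19. In the ORF1p RIP 636 full-length copies were called higher and 161 lower, and 743 shorter copies higher and 653 lower, beside 28.8% and 31.1% of all loci. Without ORF1p RIP replicate 3 the full-length counts were 385 and 208. In this comparison the share called higher was below that of all loci for both length classes of L1PA5 and L1PA6.

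Among the full-length copies tested, the proportion called higher than in the mock IP fell from L1PA3 to L1PA7. In the ORF2p RIP against the mock IP it was 68.4% of tested full-length L1PA4 copies, 51.7% of L1PA5 and 45.4% of L1PA6, between 88.7% for L1PA3 and 31.1% for L1PA7. Median log2 changes followed the same order, at 2.31, 1.80 and 1.52 for the 3 subfamilies. The log2 changes of the summed full-length classes did not. They were 2.74 for L1PA3, 1.65, 2.05 and 1.50 for the 3 subfamilies, and 2.26 for L1PA7. For the older L1PA8 and L1PA8A they were 0.36 and 2.84. For shorter copies the proportions were 50%, 35.1% and 32.3%, between 65.4% for L1PA3 and 19.9% for L1PA7. In the ORF1p RIP, 39.8% of full-length L1PA4, 27.5% of L1PA5 and 26.3% of L1PA6 were called higher, between 71.7% for L1PA3 and 20.8% for L1PA7. Full-length L1PA6 lay close to the share of all loci there, and its copies called lower made up 16.1%.

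**Figure D3:**
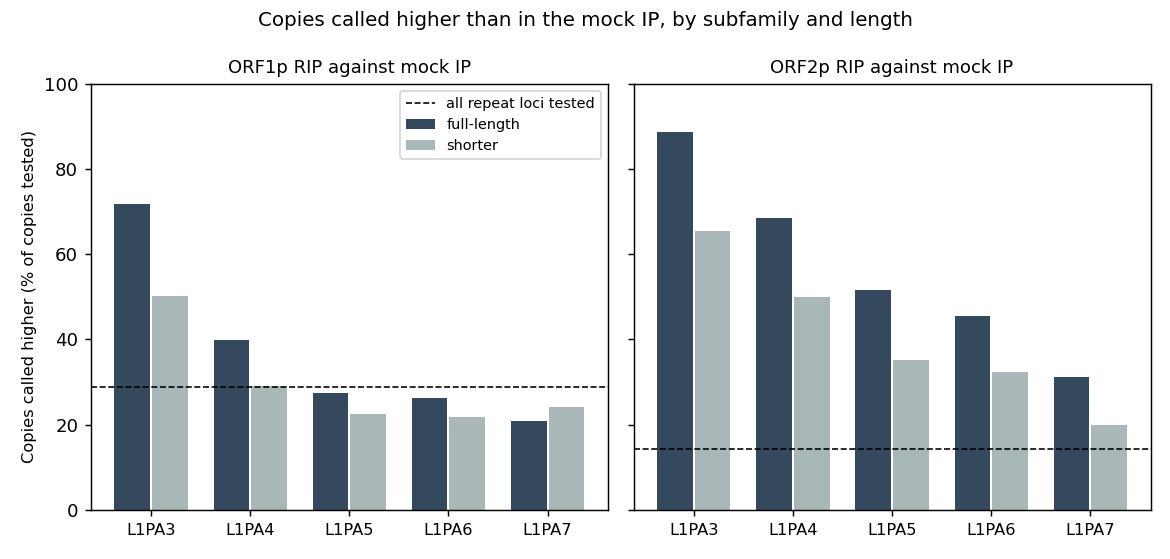
Percent of the copies tested that were called higher than in the mock IP (edgeR adjusted p under 0.05 and at least 2-fold), for full-length (dark) and shorter (light) copies of L1PA3 to L1PA7, in the ORF1p RIP (left) and the ORF2p RIP (right). The dashed line is the share of all repeat loci tested, 28.8% and 14.2%. Bars fall from L1PA3 to L1PA7 except that shorter L1PA7 lies above shorter L1PA6 in the ORF1p RIP.

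Between the RIPs, 751 full-length copies were called higher in the ORF2p RIP and 129 lower, with 1234 and 413 among the shorter ones, beside 33.6% and 30% of all loci. Unlike the comparisons with the mock IP, the proportion of tested full-length copies called higher rose with age. It went from 37.9% in L1PA4 through 40.7% in L1PA5 to 44.8% in L1PA6, between 32.5% for L1PA3 and 52.7% for L1PA7. The proportion of those tested that were called lower rose as well, from 4.1% through 9.17% to 11.3%, between 2.58% for L1PA3 and 14.1% for L1PA7. Fewer copies passed the filter with age: 1000 of 1268 for L1PA4, 545 of 897 for L1PA5 and 335 of 732 for L1PA6. Of these, 379, 222 and 150 were called higher. Over all full-length copies of the 3 subfamilies, tested or not, the share called higher therefore fell with age. Without ORF1p RIP replicate 3 the full-length counts were 1003 and 104. Against total RNA, 1348 full-length copies were called higher in the ORF2p RIP and 25 lower (19.2% and 18.4% of all loci), and 829 and 194 in the ORF1p RIP (32.6% and 33% of all loci). In the mock IP against total RNA, 4 full-length copies were called higher and 0 lower by edgeR, beside 2.51% of all loci called higher and 0.531% lower. These counts depended on the total RNA libraries: they were 94 and 81 with the bl series alone, 55 and 0 with the b series alone, and ran from 1 to 13 and from 0 to 8 with 1 library left out. DESeq2 called 10 higher and 5 lower.

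How far reads were concentrated on few copies differed by class. In full-length L1PA4 the leading copy held 3.78% of the class's reads in the ORF2p RIP, less than the 10.6% in the mock IP and 11.8% in total RNA, and 112 copies held 50% of the reads against 68 and 53. Full-length L1PA5 was the reverse. The full-length L1PA5 copy at chr4:166743490-166749649 (hg38, plus strand, within the span of SPOCK3 and antisense to it) held 50.5% of all full-length L1PA5 reads there, from 49.95% to 51.0% by library. It stood at 5705, 5589, 5243 and 4965 CPM in the ORF2p RIP. In the mock IP it stood at 119, 115 and 111 CPM, in the ORF1p RIP at 63.0, 61.6, 166 and 73.2 CPM, and in total RNA between 41.8 and 258 CPM. Only the ORF2p RIP was high, by 5.54 ± 0.61 over the mock IP on the log2 scale (SE; edgeR adjusted p = 7.85e-07), and the ORF1p RIP did not pass the test against the mock IP (-0.34, adjusted p = 0.550). SPOCK3 encodes a secreted proteoglycan. With this copy left out, together with the most-read copy of each other class, full-length L1PA5 was no longer called between the RIPs (0.76) or against total RNA (0.98) and was still called against the mock IP, where its log2 change went from 2.05 to 1.10 (edgeR adjusted p = 0.0218).

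The copy with the most reads among shorter L1PA4 showed the same pattern. It lies at chrX:57381571-57385292 (plus strand, 3722 bases, within the span of FAAH2 and in its sense), where FAAH2 encodes a fatty acid amide hydrolase, and it held 17.6% of shorter L1PA4 reads in the ORF2p RIP. Its ORF2p values were 2397, 2709, 2392 and 2235 CPM against 67.5, 76.8 and 65.7 CPM in the mock IP, 5.12 ± 0.66 higher on the log2 scale (SE; edgeR adjusted p = 5.88e-06). The ORF1p RIP had 16.9, 19.1, 75.3 and 22.7 CPM there, below the mock IP in 3 of 4 libraries but not called (-1.07, adjusted p = 0.0839).

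The leading shorter L1PA5 copy, chr19:11906255-11911830 (plus strand, within the span of ZNF69, a zinc finger gene, and partly within that of LOC107985276), went in opposite directions in the 2 RIPs. It stood at 1110, 1120, 1015 and 975 CPM in the ORF2p RIP, 55.6, 47.8 and 39.4 CPM in the mock IP, and 4.90, 4.75, 7.23 and 8.92 CPM in the ORF1p RIP. Against the mock IP it rose by 4.47 on the log2 scale in the ORF2p RIP (edgeR adjusted p = 4.62e-06) and fell by 2.88 in the ORF1p RIP (adjusted p = 2.52e-05). No 2 of these 3 groups overlapped. A full-length L1PA5 copy outside genes, chr11:18658798-18664912 (plus strand), behaved alike: 667, 634, 544 and 547 CPM in the ORF2p RIP, 71.3, 79.5 and 64.3 CPM in the mock IP, and 0.638 to 2.51 CPM in the ORF1p RIP. Between the RIPs its log2 difference was 8.55 ± 0.55 (SE; edgeR adjusted p = 2.62e-11).

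The leading shorter L1PA6 copy, by contrast, was high in both RIPs. It lies outside genes at chr2:49227587-49231532 (minus strand). It stood at 1368, 1467, 1250 and 1779 CPM in the ORF2p RIP, at 229, 320, 635 and 259 CPM in the ORF1p RIP, and at 77.0, 77.0 and 88.4 CPM in the mock IP. Each RIP lay above the mock IP without overlap, by log2 changes of 4.18 and 2.16 (edgeR adjusted p = 2.56e-07 and 3.30e-05). In total RNA it ran from 29.0 to 50.9 CPM, and unlike the set as a whole it was higher in the b series than in the bl series. Within full-length L1PA6, 1 copy at chr12:46189949-46196086 in the span of SLC38A1, an amino acid transporter gene, held 21.1% of the class's ORF1p RIP reads (19.3% to 22.6% by library).

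**Figure D4:**
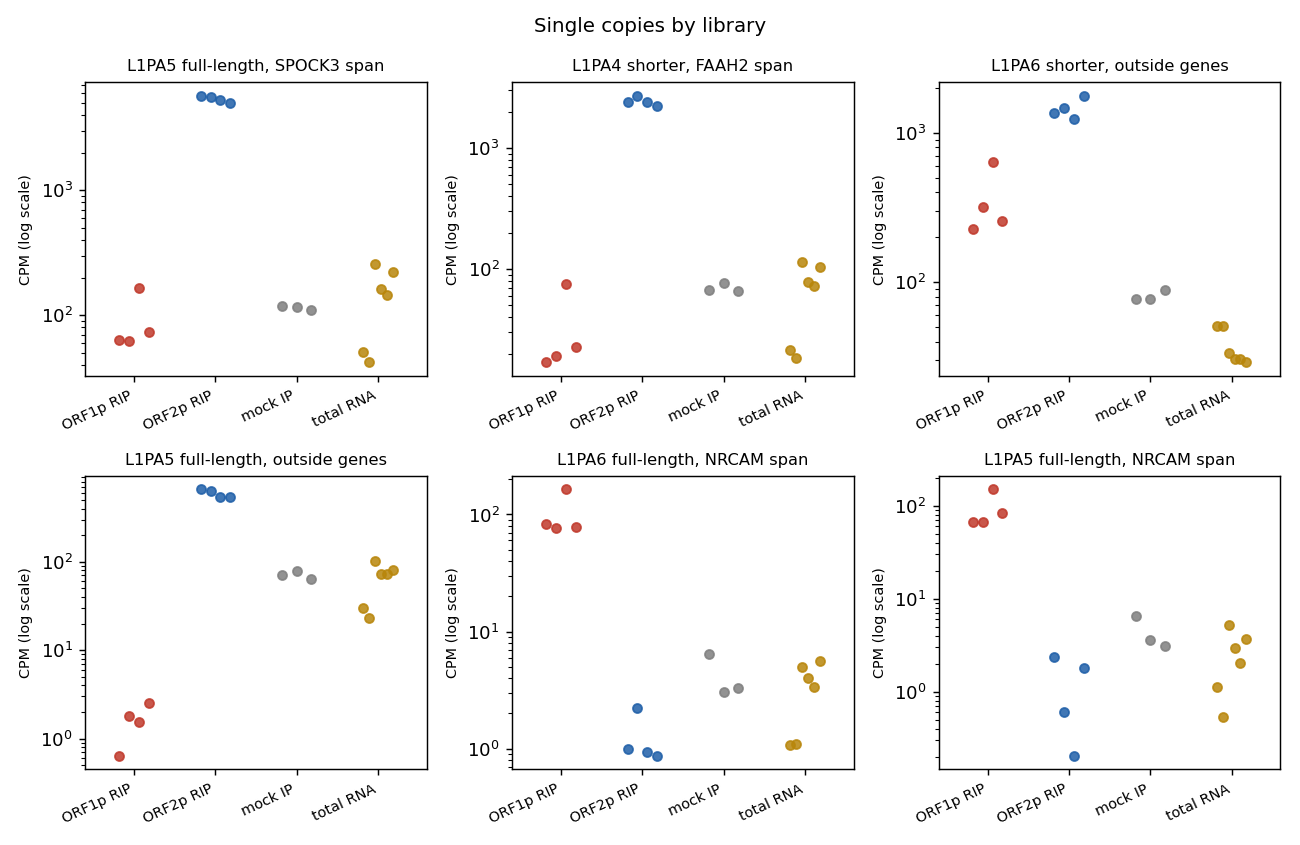
CPM by library (log axes, each with its own range) of 6 named copies; each point is 1 library. The ORF2p RIP is above all other groups in the first 4 panels, by the widest margin for the L1PA5 copy in the SPOCK3 span, and below the mock IP in both NRCAM panels, where the ORF1p RIP lies between 66.5 and 165 CPM.

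Some full-length copies were high in the ORF1p RIP alone. A pair of them lies in the span of NRCAM, which encodes a neuronal cell adhesion molecule, both in the gene's sense. The L1PA6 copy at chr7:108272749-108278897 (minus strand) stood at 83.4, 76.7, 165 and 78.2 CPM in the ORF1p RIP, 6.4, 3.07 and 3.33 CPM in the mock IP, and 0.87 to 2.23 CPM in the ORF2p RIP. The L1PA5 copy at chr7:108387570-108393732 (minus strand) stood at 67.4, 66.5, 152 and 83.0 CPM, 6.56, 3.63 and 3.13 CPM, and 0.20 to 2.34 CPM. Both were called higher than the mock IP in the ORF1p RIP (4.56 and 4.37, edgeR adjusted p = 8.48e-07 and 9.94e-06) and lower in the ORF2p RIP (-1.79 and -1.81, adjusted p = 0.0167 and 0.0341). Because the strand of counting is not stated, reads of the host gene's own transcript and reads of the L1 copy cannot be told apart.

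A full-length L1PA6 copy in the span of the long non-coding RNA LINC01411, chr5:174465905-174472053 (plus strand, sense), had 31.0, 28.3, 63.8 and 29.8 CPM in the ORF1p RIP, and under 0.40 CPM in each ORF2p RIP library. Its mock values were 3.69, 0.968 and 0.232 CPM, a log2 change of 4.53 ± 0.67 for the ORF1p RIP (SE; edgeR adjusted p = 4.12e-06). The L1PA5 copy at chr21:14933878-14939951 (minus strand) lies outside genes and also exceeded the mock IP in the ORF1p RIP, by 5.31 ± 0.56 (adjusted p = 4.09e-08). It did not pass the test in the ORF2p RIP (0.52, adjusted p = 0.501).

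One full-length L1PA4 copy outside genes, chr4:66545119-66551255 (plus strand), varied widely within both RIP groups. Its ORF1p RIP values were 1.57, 0.830, 304 and 0.410 CPM, and its ORF2p RIP values 1.92, 107, 156 and 83.7 CPM. All 3 mock libraries were under 1 CPM, and total RNA ran from 0.180 to 5.03 CPM. It was called higher in both RIPs (7.25 ± 1.93 and 7.43 ± 1.94, edgeR adjusted p = 0.00242 and 0.00647), but the ORF1p RIP libraries other than replicate 3 lay between 0.410 and 1.57 CPM and overlapped the mock IP.

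Copies on the X chromosome between the starts of PTCHD1 and PRDX4 formed a group of their own, picked out after their values were seen. There are 12, 11 of them on the minus strand, and they include the most-read full-length copies of L1PA4, L1PA5 and L1PA6 in the mock IP. PTCHD1 encodes a Patched-domain membrane protein and PRDX4 a peroxiredoxin of the secretory pathway. Together the 12 copies summed to 1827, 1826 and 1546 CPM in the mock IP and to 61.7, 66.6, 144 and 72.1 CPM in the ORF1p RIP. In the ORF2p RIP they summed to 3054, 2981, 2819 and 2690 CPM, and in total RNA from 546 through a median of 2104 to 3386 CPM.

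The ORF1p RIP thus lay far below every library of every other group. On the log2 scale the difference from the mock IP was -4.42 and that from total RNA -4.27, given without a test since these copies were picked out by their values. The ORF2p RIP was 0.74 above the mock IP, without overlap. These copies held 10.3% ± 0.435 of the set's reads in the mock IP (SD, n = 3), 5.17% ± 0.137 in the ORF2p RIP and 0.382% ± 0.0227 in the ORF1p RIP. The full-length L1PA5 copy at chrX:23645909-23651833 (minus strand, outside genes) shows it singly. It had 431, 453 and 366 CPM in the mock IP against 14.1, 14.7, 40.4 and 16.8 CPM in the ORF1p RIP. The fitted log2 change was -4.28 with an SE of 0.52. In the ORF2p RIP this copy had 492, 493, 500 and 459 CPM, a log2 change of 0.22. Both changes are again given without a test.

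**Figure D5:**
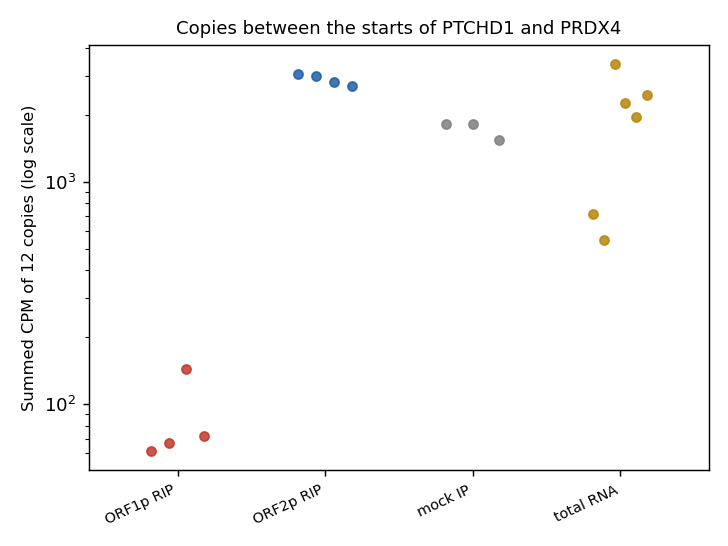
Summed CPM (log axis) of the 12 L1PA4, L1PA5 and L1PA6 copies between the starts of PTCHD1 and PRDX4, by group. Each point is 1 library. The 4 ORF1p RIP libraries lie between 61.7 and 144 CPM and no other library is below 546 CPM.

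Not all 12 copies moved alike. The shorter L1PA4 copy at chrX:23453719-23456783 (minus strand) stood at 803 ± 66.8 CPM in the ORF2p RIP (SD, n = 4). In the mock IP it stood at 144 ± 16.9 CPM (n = 3), a log2 change of 2.48, also given without a test. In the ORF1p RIP it stood at 7.45 ± 0.773 CPM. With the 12 copies left out, an alternative added after seeing the data, full-length L1PA5 in the ORF1p RIP against the mock IP moved from 0.32 to 0.88 (edgeR adjusted p = 0.0223), still short of 2-fold, and full-length L1PA4 to 0.90 (adjusted p = 0.0282). With the 5 most-read copies of each class left out, full-length L1PA5 was called higher there, at 1.04 (adjusted p = 0.00539). All 6 classes were called higher in the ORF2p RIP in both cases.

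Position relative to genes separated the RIPs. Summed over the 288 full-length copies in the sense of a gene, the log2 ratio of means to the mock IP was 1.26 in the ORF1p RIP and 1.0 in the ORF2p RIP. Over the 1512 full-length copies outside gene spans it was -0.01 and 1.78, and over the 672 antisense ones 0.72 and 2.78. With the 5 most-read copies of each class left out, the ORF1p ratios were 1.12, 0.76 and 0.81 for sense, outside and antisense copies, and the ORF2p ratios 0.88, 2.13 and 1.38. Sense copies therefore differed from copies outside genes in the ORF2p RIP in the same direction with and without the leading copies, while in the ORF1p RIP most of that difference went with them. Among the copies tested, 74.2% of full-length copies outside genes were called higher in the ORF2p RIP than in the mock IP, against 34.9% of sense ones. Of all repeat loci tested, 14.2% were called higher in that comparison. The corresponding shares in the ORF1p RIP were 36% and 34.0%, beside 28.8% of all loci. Shares of all loci by gene position were not computed.

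Refitted over copies outside gene spans alone, the ORF1p RIP change against the mock IP turned to -0.93 for full-length L1PA5, -0.12 for full-length L1PA6 and -0.25 for shorter L1PA5. These are changes of sums, in which the most-read copies weigh most. Single full-length copies outside genes, of L1PA4 to L1PA6 together, mostly went the other way. The 875 tested had a median log2 change of 1.20, with 36% called higher and 8.69% lower. Their summed ratio went from -0.01 to 0.76 without the most-read copies of each class. The refit outside gene spans was not repeated without those copies.

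Shorter copies followed the same order in the ORF2p RIP against the mock IP. There 57.8% of those tested outside genes and 24.1% of sense ones were called higher, beside 14.2% of all loci. Their summed log2 ratios were 2.14 outside genes (12513 copies), 1.47 sense (3369 copies) and 0.92 antisense (4912 copies). With the 5 most-read copies of each class left out, these were 1.66, 0.85 and 0.92, so that 3 sense copies moved the sense ratio below the antisense one. Full-length copies differed in order, with antisense copies highest over all copies. The ORF1p RIP values were 0.05, 0.61 and 0.47, and of these 3 positions RIP and mock libraries overlapped only outside genes.

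Within a subfamily, the divergence of a copy had a weak relation to its change. Across copies tested, which share libraries and in part reads, Spearman's rho between divergence and the log2 change against the mock IP in the ORF1p RIP was -0.09 for full-length L1PA4 (1000 copies), -0.12 for L1PA5 (545) and -0.16 for L1PA6 (335). In the ORF2p RIP it was 0.05, -0.00 and 0.11. Among shorter copies, length had a stronger relation than divergence to the change against the mock IP. Its rho was 0.33, 0.34 and 0.32 for L1PA4 (1291 copies), L1PA5 (1060) and L1PA6 (585) in the ORF2p RIP and 0.27, 0.16 and 0.14 in the ORF1p RIP. Among full-length copies the rho with length was 0.08, 0.03 and 0.02 in the ORF2p RIP and 0.04, -0.02 and -0.07 in the ORF1p RIP.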

How the data were processed

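The authors deposited 1 table of expected counts per repeat locus, fractional where reads were shared between loci, and per the submitters' processing notes the reads were aligned to hg38 with STAR; the counter, versions and strand setting are not given in the sources used here. Libraries were made with a Trio RNA-seq kit after DNase treatment and rRNA depletion, per the labels' protocols. Of 60 value columns, 43 matched no labelled sample and were not used.

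Counts were summed per subfamily, with L1 subfamilies split at 5900 bases, and rounded, which gave 1115 tested rows. They were fitted with edgeR 4.0.16 (R 4.3.3, TMM, quasi-likelihood test, group as the only term, all 17 libraries, Benjamini-Hochberg adjustment). The 196463 single loci (min.count 20) were fitted likewise, with TMM factors of the subfamily table without the length split. Sums of copies by length or position used these factors too. Full-length L1PA4 in the ORF2p RIP is 7790 CPM on that scale and 7702 CPM as a class. A call needs an adjusted p under 0.05 and a 2-fold change. On simulated data the subfamily fit found 99% of 4-fold changes in ORF2p RIP against mock IP. The locus fit, on 4000 loci, found 41% of these and 3% of 2-fold changes. There a change was found at an adjusted p under 0.05 alone, without the 2-fold rule. Far fewer of the simulated loci changed than were called in the RIP comparisons, so these rates need not hold for the real loci. Shares and ratios were compared with exact two-sided permutation tests. Depth was 7693841 to 19670774 repeat reads per library. Gene spans are from RefSeq GRCh38.p14. Named copies are the 5 with the most reads per length class, and the 3 highest and 3 lowest called changes per comparison and length class whose libraries do not overlap (at least 2 CPM in 1 group); the leading copy of full-length L1PA6 in the ORF1p RIP and the copies between PTCHD1 and PRDX4 were chosen after values were seen. The members and lists were chosen with earlier results of these data known. Correlations between same-numbered libraries of different groups ran from -0.384 to 0.455, with 9 of 21 pairs over 0.1. Pairs with different numbers were not computed, so these values cannot decide whether same-numbered libraries deviate together.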

Additional observations from a re-analysis of the deposited data

Results flagged for a closer look

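ORF1p RIP replicate 3 lay far from the other 3 libraries of its group in all 11 groups of values that were flagged. The 39 groups looked at also held those of the ORF2p RIP and total RNA, where none was flagged. Many of these values sum the same reads. The flags are therefore not independent, and their number cannot be set against a chance rate of about 1 in 20. Its CPM was 7434 for full-length and 7991 for shorter L1PA4, where the others reached at most 3058 and 4135. For L1PA5 it was 4948 and 7111, against at most 2685 and 4122, and for L1PA6 3840 and 4082, against at most 2078 and 2327. Its full-length share of L1PA4 reads was 48.2%, with the others between 42.5% and 42.7%. The set's share of repeat reads was 2.88% there, of which 1.32% came from full-length and 1.56% from shorter copies. The copies between PTCHD1 and PRDX4 summed to 144.5 CPM in this library and to at most 72.1 CPM in the others. The cause was not tested.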

How the results depend on the processing

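Class changes kept their direction and their side of the threshold in 369 of 414 values from other settings and in 602 of 612 with 1 library left out. The shorter classes lost their ORF2p RIP calls over copies with whole values in all libraries, which hold under 1% of their reads. Single copies depend on how shared reads were divided, which was not tested, and depth was not varied. The values that changed side, direction or size follow, and the cause was not tested, except that fewer loci are tested with min.count 50 and more with min.count 10. The alternatives that leave out the 5 most-read copies, or the copies between PTCHD1 and PRDX4, were chosen after seeing the data.

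Scaled by library totals, the log2 change came to -0.036 for full-length L1PA5 in ORF1p RIP against total RNA, 0.96 for full-length L1PA6 in ORF2p RIP against total RNA, and -0.0042 for shorter L1PA6 in mock IP against total RNA. The count of copies called lower scaled by library totals came to 29 for full-length and 255 for shorter in ORF2p RIP against mock IP, and 66 for full-length and 284 for shorter in ORF2p RIP against total RNA. The log2 change, with the replicate number as a block, came to 1.03 for full-length L1PA4 and 1.03 for full-length L1PA6 in ORF2p RIP against ORF1p RIP, and 0.12 for full-length L1PA4, 0.12 for full-length L1PA5 and 0.076 for full-length L1PA6 in mock IP against total RNA. With the replicate number as a block, the number of copies called higher came to 0 for full-length and 0 for shorter in mock IP against total RNA. The number of copies called lower with the replicate number as a block came to 10 for full-length and 63 for shorter in ORF2p RIP against total RNA, and 0 for shorter in mock IP against total RNA. The log2 change, with the length limit at 5500 bases, came to 1.26 for full-length L1PA6 in ORF2p RIP against ORF1p RIP. With the length limit at 5500 bases, the full-length share difference in percentage points came to 2.18 for L1PA6 in ORF2p RIP against ORF1p RIP, and 3.35 for L1PA6 in ORF2p RIP against mock IP. The difference in log2 ratio with the length limit at 5500 bases came to 0.068 for full-length L1PA5 over full-length L1PA7 and -0.013 for shorter L1PA5 over shorter L1PA7 in ORF2p RIP against mock IP, and -0.18 for shorter L1PA6 over shorter L1PA7 in ORF2p RIP against ORF1p RIP. The difference in log2 ratio, with the length limit at 6000 bases, came to 0.052 for full-length L1PA5 over full-length L1PA7 in ORF1p RIP against mock IP, and -0.064 for full-length L1PA5 over full-length L1PA7 in ORF2p RIP against ORF1p RIP. Without the most-read copy of each class, the log2 change came to 0.76 for full-length L1PA5 in ORF2p RIP against ORF1p RIP, and 0.98 for full-length L1PA5 in ORF2p RIP against total RNA. The full-length share difference in percentage points without the most-read copy of each class came to 5.03 for L1PA4, -3.97 for L1PA5 and 2.55 for L1PA6 in ORF2p RIP against mock IP, and -5.49 for L1PA5 in ORF2p RIP against ORF1p RIP. The log2 change, without the 5 most-read copies of each class, came to 0.023 for full-length L1PA4 in mock IP against total RNA, 0.89 for shorter L1PA4, 0.30 for full-length L1PA5, 0.76 for shorter L1PA5 and 0.77 for shorter L1PA6 in ORF2p RIP against ORF1p RIP, and 1.04 for full-length L1PA5 in ORF1p RIP against mock IP. Without the 5 most-read copies of each class, the full-length share difference in percentage points came to 0.483 for L1PA4 and -7.01 for L1PA5 in ORF2p RIP against ORF1p RIP, and 7.88 for L1PA4 and 4.34 for L1PA6 in ORF2p RIP against mock IP. The log2 change over copies outside gene spans came to 1.29 for full-length L1PA4 and 2.62 for full-length L1PA6 in ORF2p RIP against ORF1p RIP, -0.93 for full-length L1PA5, -0.25 for shorter L1PA5 and -0.12 for full-length L1PA6 in ORF1p RIP against mock IP, and -1.07 for full-length L1PA5, -0.0048 for shorter L1PA5 and -0.34 for full-length L1PA6 in ORF1p RIP against total RNA. The full-length share difference in percentage points, over copies outside gene spans, came to 4.24 for L1PA4, -16.9 for L1PA5 and 0.225 for L1PA6 in ORF2p RIP against mock IP, -12.1 for L1PA5 and -4.27 for L1PA6 in ORF1p RIP against mock IP, and -4.75 for L1PA5 and 4.49 for L1PA6 in ORF2p RIP against ORF1p RIP. Over copies with whole values in all libraries, the log2 change came to -0.21 for shorter L1PA4, 0.0029 for shorter L1PA5 and -0.36 for shorter L1PA6 in ORF2p RIP against ORF1p RIP, 0.013 for shorter L1PA4, 0.064 for shorter L1PA5 and -0.52 for shorter L1PA6 in ORF2p RIP against mock IP, and 0.084 for shorter L1PA4, 0.15 for shorter L1PA5 and -0.19 for shorter L1PA6 in ORF2p RIP against total RNA. The log2 change over copies with whole values in all libraries came to -0.16 for shorter L1PA6 in ORF1p RIP against mock IP. The log2 change, with total RNA of the b series only, came to 1.30 for full-length L1PA4, 1.05 for shorter L1PA4, 1.08 for full-length L1PA5 and 1.27 for full-length L1PA6 in ORF1p RIP against total RNA, and 0.62 for full-length L1PA4, 0.81 for full-length L1PA5 and 0.76 for full-length L1PA6 in mock IP against total RNA. With total RNA of the b series only, the number of copies called higher came to 55 for full-length and 114 for shorter in mock IP against total RNA. The number of copies called lower with total RNA of the b series only came to 403 for shorter in ORF1p RIP against total RNA, 73 for shorter in ORF2p RIP against total RNA, and 0 for shorter in mock IP against total RNA. The log2 change, with total RNA of the bl series only, came to -0.17 for full-length L1PA5 in ORF1p RIP against total RNA, and -0.022 for shorter L1PA5 and -0.040 for shorter L1PA6 in mock IP against total RNA. With total RNA of the bl series only, the number of copies called higher came to 94 for full-length and 232 for shorter in mock IP against total RNA. The number of copies called lower with total RNA of the bl series only came to 64 for full-length and 209 for shorter in ORF2p RIP against total RNA, and 81 for full-length and 120 for shorter in mock IP against total RNA. Calls of copies as higher, with DESeq2, came to 10 for full-length and 112 for shorter in mock IP against total RNA. With DESeq2, calls of copies as lower came to 248 for full-length in ORF1p RIP against mock IP, 309 for full-length in ORF1p RIP against total RNA, and 85 for full-length in ORF2p RIP against ORF1p RIP. Calls of copies as lower with DESeq2 came to 5 for full-length and 10 for shorter in mock IP against total RNA. Calls of copies as higher, with min.count 10, came to 1844 for shorter in ORF1p RIP against total RNA, 1866 for shorter in ORF2p RIP against ORF1p RIP, and 2754 for shorter in ORF2p RIP against total RNA. With min.count 10, calls of copies as lower came to 1 for full-length in mock IP against total RNA. The count of copies called higher with min.count 50 came to 359 for full-length and 355 for shorter in ORF1p RIP against mock IP, 438 for full-length and 447 for shorter in ORF1p RIP against total RNA, and 416 for full-length and 528 for shorter in ORF2p RIP against ORF1p RIP. The count of copies called higher, with min.count 50, came to 564 for full-length and 515 for shorter in ORF2p RIP against mock IP, 625 for full-length and 594 for shorter in ORF2p RIP against total RNA, and 29 for shorter in mock IP against total RNA. With min.count 50, the count of copies called lower came to 331 for shorter in ORF1p RIP against mock IP, 326 for shorter in ORF1p RIP against total RNA, and 213 for shorter in ORF2p RIP against ORF1p RIP. The count of copies called lower with min.count 50 came to 55 for shorter in ORF2p RIP against mock IP, 75 for shorter in ORF2p RIP against total RNA, and 0 for shorter in mock IP against total RNA. The share difference in percentage points, as a percent of LINE reads, came to -0.298 for L1PA4 to L1PA6 shorter and -0.164 for L1PA4 to L1PA6 in ORF1p RIP against mock IP.

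With 1 library left out at a time, the results that changed had these ranges. The ratios to L1PA3 against total RNA listed here kept their direction and lost only an adjusted p under 0.05. Leaving out a library raises the smallest p that the exact permutation test can give. For ORF2p RIP against ORF1p RIP, log2 changes ran from 0.78 to 1.36 for full-length L1PA4 and 0.84 to 1.24 for full-length L1PA6. Log2 changes in mock IP against total RNA ran from -0.15 to 0.13 for full-length L1PA4, -0.28 to 0.051 for full-length L1PA5 and -0.31 to 0.041 for full-length L1PA6. For ORF1p RIP against mock IP, log2 changes ran from -0.042 to 0.37 for shorter L1PA4 and -0.027 to 0.31 for shorter L1PA5. Log2 changes in ORF1p RIP against total RNA ran from -0.11 to 0.35 for full-length L1PA5. For ORF1p RIP against mock IP, counts ran from 385 to 664 for full-length copies called higher. Counts in ORF1p RIP against total RNA ran from 545 to 873 for full-length copies called higher. For mock IP against total RNA, counts ran from 1 to 13 for full-length copies called higher, 7 to 123 for shorter copies called higher and 0 to 8 for full-length copies called lower. Counts in mock IP against total RNA ran from 0 to 16 for shorter copies called lower. For ORF2p RIP against mock IP, counts ran from 5 to 20 for full-length copies called lower and 62 to 143 for shorter copies called lower. Counts in ORF2p RIP against total RNA ran from 15 to 45 for full-length copies called lower. For ORF1p RIP against total RNA, differences in log2 ratio ran from -0.73 to -0.64 for full-length L1PA4 over full-length L1PA3, -0.88 to -0.80 for shorter L1PA4 over shorter L1PA3 and -1.16 to -0.96 for full-length L1PA5 over full-length L1PA3. Differences in log2 ratio in ORF1p RIP against total RNA ran from -1.02 to -0.88 for shorter L1PA5 over shorter L1PA3, -0.94 to -0.75 for full-length L1PA6 over full-length L1PA3 and -0.98 to -0.85 for shorter L1PA6 over shorter L1PA3. For ORF2p RIP against total RNA, differences in log2 ratio ran from -1.07 to -1.03 for full-length L1PA4 over full-length L1PA3, -0.75 to -0.67 for full-length L1PA5 over full-length L1PA3 and -0.46 to -0.42 for shorter L1PA5 over shorter L1PA3. Differences in log2 ratio in ORF2p RIP against total RNA ran from -1.32 to -1.25 for full-length L1PA6 over full-length L1PA3 and -0.27 to -0.20 for shorter L1PA6 over shorter L1PA3. For ORF1p RIP against mock IP, differences in log2 ratio ran from -0.012 to 0.018 for full-length L1PA6 over full-length L1PA7. Differences in log2 ratio in ORF2p RIP against mock IP ran from -0.054 to 0.018 for shorter L1PA6 over shorter L1PA3. For ORF1p RIP against total RNA, share differences ran from -0.0118 to 0.211 for L1PA4 to L1PA6 full-length. Share differences in ORF1p RIP against mock IP ran from -0.000224 to 0.174 for L1PA4 to L1PA6 shorter. Whether same-numbered libraries of different groups belong together was not settled. The block on the replicate number gave a log2 change of 2.03 for full-length L1PA5 in ORF2p RIP against mock IP. It left the 6 classes called there.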
